A study of Saccharomyces cerevisiae with 13 samples.

Results

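The phosphate starvation genes of Saccharomyces cerevisiae followed here are PHO84, PHO89, PHO5, PHO11, PHO12, PHO8, PHO81, SPL2, VTC1 and VTC4, 10 genes chosen by name from the known phosphate (PHO) regulon. Array probe sets carry the name of 9 of them, out of 5449 S. cerevisiae genes measured. PHO12 has no probe set of its own name in the annotation used. The PHO11 probe set carries the suffix that the array maker gives to probe sets matching several transcripts. PHO11 and PHO12 encode nearly identical acid phosphatases, so its values are given as PHO11 and may hold both.

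RNA was taken from 13 chemostat cultures grown under glucose limitation with little oxygen and with furfural in the feed. Furfural is an aldehyde released from plant biomass that slows yeast growth. TMB3400, the parent strain, was fed 15 mM (n = 2) or 25 mM (n = 3), and TMB3400-FT30-3, evolved from it to tolerate more furfural and called FT30-3 here, was fed 15 mM (n = 3), 25 mM (n = 2) or 36 mM (n = 3). The parent washed out at 36 mM, so there is no parental group at that level. All 5 groups received furfural and all were limited by glucose, so the set holds neither a furfural-free nor a phosphate-limited culture. Replicates are described as biological by the submitters.

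In yeast, the PHO pathway senses inorganic phosphate through the inhibitor Pho81, the cyclin and kinase pair Pho80 and Pho85, and the transcription factors Pho4 and Pho2. When phosphate is scarce, Pho81 holds the kinase inactive, and Pho4 enters the nucleus and switches on its targets. Those targets take up phosphate, release it from organic compounds, or build and use the polyphosphate store of the vacuole. PHO84, the high-affinity phosphate transporter of the plasma membrane, and SPL2, a small protein that restrains low-affinity uptake, are known to respond early and strongly.

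Values are array intensities, and differences are log2 values after each array's median gene was set to a common level, since the median of all gene differences between 15 mM and 25 or 36 mM was 0.13 to 0.17 (log2) before this step. All 9 measured genes read above background on all 13 arrays. Background was the 95th percentile of probe sets for another yeast, Schizosaccharomyces pombe, which lay between 31.2 and 39.0. The dimmest reading was that of SPL2 on 1 array, at 1.53 times that level. At 36 mM, replicate 1 stood apart: it correlated with replicates 2 and 3 at r = 0.969 and 0.966 across probe sets, while those correlated at 0.995. Results that rest on it are given with and without it. A call below means an adjusted p under 0.05 from limma over all 5449 genes. S. pombe probe sets, tested in a fit of their own, were called in 0% (strains at 15 mM) to 9.11% (36 against 15 mM) of 1746.

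The clearest difference among the members was a fall of PHO84 with furfural in FT30-3. PHO84 read 696, 1006 and 1119 in FT30-3 at 15 mM. At 25 mM it read 514 and 551, and at 36 mM it read 132, 239 and 216. The 3 dose groups did not overlap, and replicate 1 at 36 mM was the lowest of all 13 samples. Between 15 and 36 mM its log2 level changed by -2.47 ± 0.37 (SE, n = 3 each, limma adjusted p = 0.000993), a 5.56-fold fall. Without replicate 1 at 36 mM the difference was -2.205 (adjusted p = 0.0037). Over the 22 alternative settings its adjusted p ran from 5.3e-05 to 0.00593. It ranked 7 from the lowest among the differences of all 5449 genes. The measured RNA comes from whole cultures and is scaled to the median gene, so fewer cells expressing PHO84 and less PHO84 RNA per cell cannot be told apart.

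PHO84 was the single member called in this comparison, 1 of 9 and lower, where 11.2% of all genes were called lower and 22.2% called in either direction. The median difference of the 9 members was -0.24, against -0.03 over all genes. Without replicate 1 at 36 mM the members' median was -0.01, and with array weights it was 0.02. In TMB3400, PHO84 read 2193 and 805 at 15 mM, and 731, 379 and 542 at 25 mM. The TMB3400 dose groups did not overlap either, but the 2 samples at 15 mM lay far apart. The difference of -1.46 ± 0.41 did not pass (limma adjusted p = 0.162). It was -0.74 without replicate 1 at 15 mM (adjusted p = 0.9995) and -2.18 without replicate 2 (adjusted p = 0.0454), so the size in the parent rests on which of these samples is kept. Over its 22 alternatives, its adjusted p ran from 0.0339 to 0.9995.

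Smaller dose steps within FT30-3 gave the same sign for PHO84 without a call. From 15 to 25 mM the difference was -0.95 ± 0.41 (adjusted p = 0.403). From 25 to 36 mM it was -1.52 ± 0.41 (adjusted p = 0.0506, and 0.0264 to 0.194 over the alternatives). It passed in 6 of 22 alternatives, among them those without replicate 1 or 2 of TMB3400 at 15 mM (adjusted p = 0.0264 each), and was -1.25 without replicate 1 at 36 mM (adjusted p = 0.104). The steps share the 25 mM samples, so they are not independent of each other.

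Ordered by group mean, centred log2 PHO84 was 10.48 ± 1.01 (SD, n = 2) in TMB3400 at 15 mM, 9.95 ± 0.38 (n = 3) in FT30-3 at 15 mM, 9.02 ± 0.47 (n = 3) in TMB3400 at 25 mM, 8.998 ± 0.08 (n = 2) in FT30-3 at 25 mM and 7.48 ± 0.47 (n = 3) in FT30-3 at 36 mM. The pairs of strains at equal dose overlapped. At 15 mM the strain difference was -0.53, with a 95% interval of -1.44 to 0.38 (adjusted p = 0.7). Its direction rested on TMB3400 at 15 mM: it was 0.19 without replicate 1 and -1.25 without replicate 2. At 25 mM it was -0.03, from -0.94 to 0.88 (adjusted p = 0.983). The dose response of PHO84 was not shown to differ between the strains (interaction 0.51 ± 0.58, adjusted p = 0.9997, and -0.21 or 1.22 without replicate 1 or 2 of TMB3400 at 15 mM). Its group means spanned 3.01 on the log2 scale, against a median span of 0.38 over all genes, and its within-group SD of 0.53 was also high beside the median gene's 0.16.

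**Figure D1:**
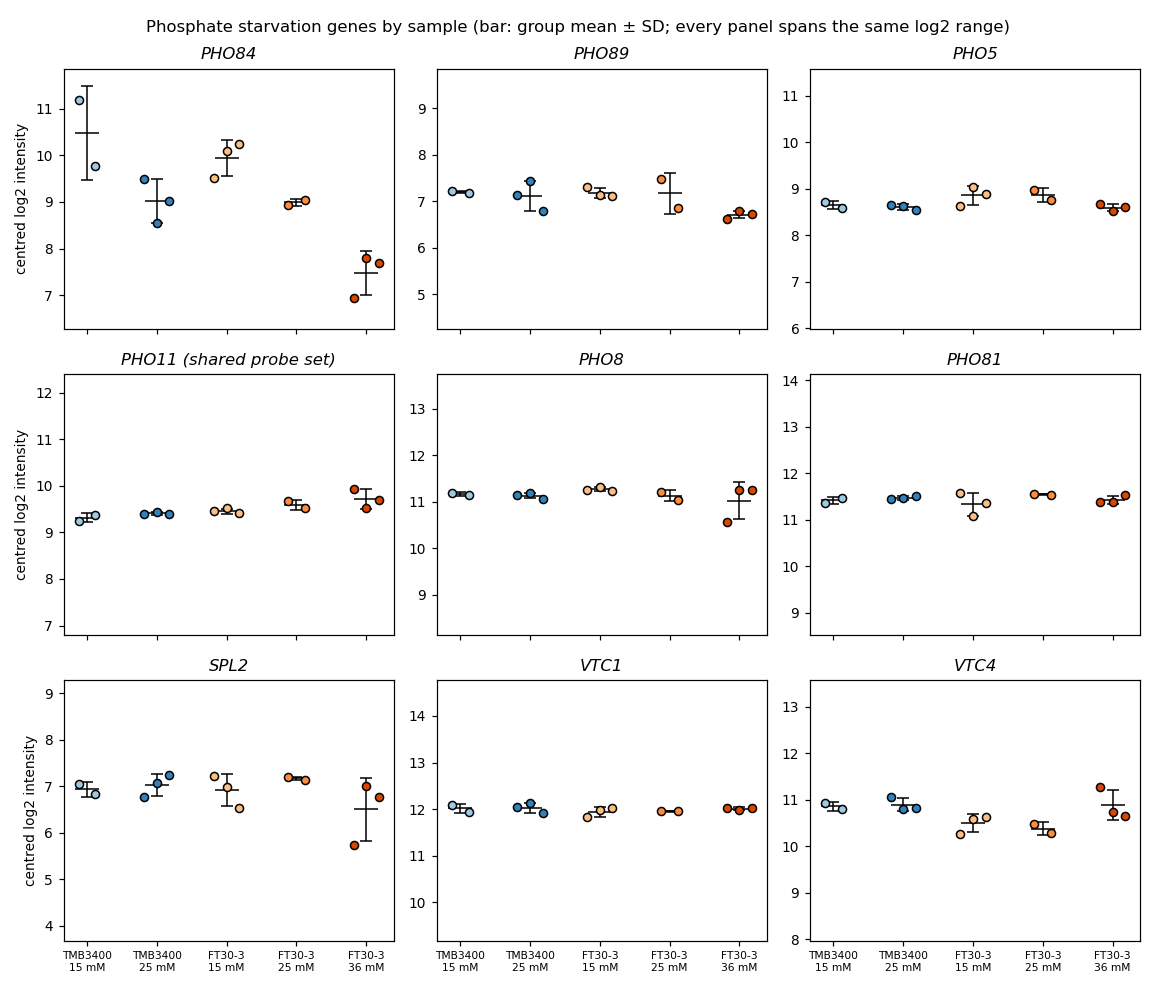
Centred log2 intensity of the 9 measured genes (y axis, each panel spanning the same log2 range) in the 5 strain and furfural groups (x axis). Points are samples and bars show the group mean ± SD. PHO84 is the one panel with a wide spread of group means, from 10.48 in TMB3400 at 15 mM to 7.48 in FT30-3 at 36 mM, while VTC1 stays within a span of 0.09.

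PHO89, the sodium-coupled high-affinity phosphate transporter, which acts in yeast at alkaline pH, read low in all groups. Its intensities were 138 and 133 in TMB3400 at 15 mM and 141, 174 and 114 at 25 mM. In FT30-3 they were 149, 128 and 126 at 15 mM, 185 and 120 at 25 mM, and 106, 117 and 110 at 36 mM. After centring, the 36 mM samples were the 3 lowest of the 13. The difference from 15 to 36 mM was -0.47 ± 0.17 and did not pass (adjusted p = 0.0715). It passed in 4 of the 22 alternatives, such as the fit of the groups compared alone, where the adjusted p was 0.0288 (0.024 to 0.248 over the alternatives). On the values as deposited, PHO89 differed from 15 to 36 mM by -0.27. On the centred scale, where PHO89 differed by -0.47, S. pombe probe sets had a median difference of -0.24. Between the strains, averaged over 15 and 25 mM, PHO89 differed by 0.02 ± 0.14.

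The secreted acid phosphatases PHO5 and PHO11, which free phosphate outside the cell, had no call in any comparison of the main fit. PHO5 read between 354 and 521 on all 13 arrays. Its difference from 15 to 36 mM was -0.27 ± 0.11 (adjusted p = 0.1), and the groups overlapped. It was -0.38 without replicate 1 at 15 mM (adjusted p = 0.0349) and -0.17 without replicate 2 there (adjusted p = 0.31), and its adjusted p ran from 0.00295 to 0.67 over the alternatives. PHO11 read 667, 677 and 624 in FT30-3 at 15 mM and 1067, 792 and 868 at 36 mM. These PHO11 groups did not overlap, and the 36 mM samples were the higher ones, but the difference of 0.26 ± 0.10 did not pass (adjusted p = 0.0938). It was 0.15 without replicate 1 at 36 mM (adjusted p = 0.218) and 0.36 without replicate 2 (adjusted p = 0.0381), and its adjusted p ran from 0.00827 to 0.22 over the alternatives. PHO5 was higher in FT30-3 than in TMB3400 by 0.24 ± 0.09 over both doses, which did not pass (adjusted p = 0.109). It was called in 2 of the 22 alternatives, and ran from 0.19 to 0.29 with 1 sample left out. PHO11 was higher by 0.16 ± 0.08 (adjusted p = 0.245).

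PHO8, the alkaline phosphatase of the vacuole, read between 2081 and 2610 on 12 arrays and 1640 in replicate 1 at 36 mM. Its difference from 15 to 36 mM was -0.24 ± 0.16, and -0.01 without that replicate (adjusted p = 0.282 and 0.925). SPL2 gave a like picture, with 56.4 in replicate 1 at 36 mM and 84.3 to 155 on the other 12 arrays. Its difference was -0.41 ± 0.29, and -0.02 without that replicate (adjusted p = 0.316 and 0.94). For both genes the lower mean at 36 than at 15 mM was thus that of 1 sample. Against 25 mM, SPL2 at 36 mM was lower by -0.66 ± 0.32 without overlap and did not pass (adjusted p = 0.248). Without replicate 1 at 36 mM that difference was -0.28. PHO81, the kinase inhibitor and itself a Pho4 target, read between 2008 and 3151, with a difference of 0.09 ± 0.11 (adjusted p = 0.579).

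The VTC genes encode subunits of the vacuolar transporter chaperone complex, which makes polyphosphate. VTC1, a membrane subunit, was the steadiest member, with intensities from 3429 to 4509 and a span of group means of 0.09, narrower than that of all but 0.881% of genes. VTC4, the catalytic subunit, read 1808 and 1644 in TMB3400 at 15 mM and 2164, 1815 and 1868 at 25 mM. In FT30-3 it read 1175, 1415 and 1466 at 15 mM and 1489 and 1298 at 25 mM. Every FT30-3 sample at these doses lay below every TMB3400 sample. At 36 mM VTC4 read 2674, 1826 and 1701 in FT30-3, and after centring replicate 1 lay above every TMB3400 sample and replicates 2 and 3 below every one of them.

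VTC4 was the 1 member called between the strains averaged over 15 and 25 mM, where it was lower in FT30-3 (-0.44 ± 0.13, adjusted p = 0.0494). Of all genes, 4.4% were called lower and 11.2% in either direction in that comparison. The call was lost in 14 of 22 alternatives. Among these, its value was -0.42 on the values as deposited (adjusted p = 0.0612) and -0.44 with the replicate number as a block (adjusted p = 0.0548). Over the 22 alternatives its adjusted p ran from 0.00737 to 0.16, and it lost the call when any 1 sample at 15 or 25 mM was left out. At 25 mM alone VTC4 was -0.51 ± 0.18 (adjusted p = 0.134), and 0.0258 without replicate 1 at 36 mM. At 15 mM alone it was -0.36 ± 0.18 (adjusted p = 0.461). From 15 to 36 mM in FT30-3, VTC4 was higher by 0.39 ± 0.16 without passing (adjusted p = 0.1), and by 0.20 without replicate 1 at 36 mM (adjusted p = 0.264).

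**Figure D2:**
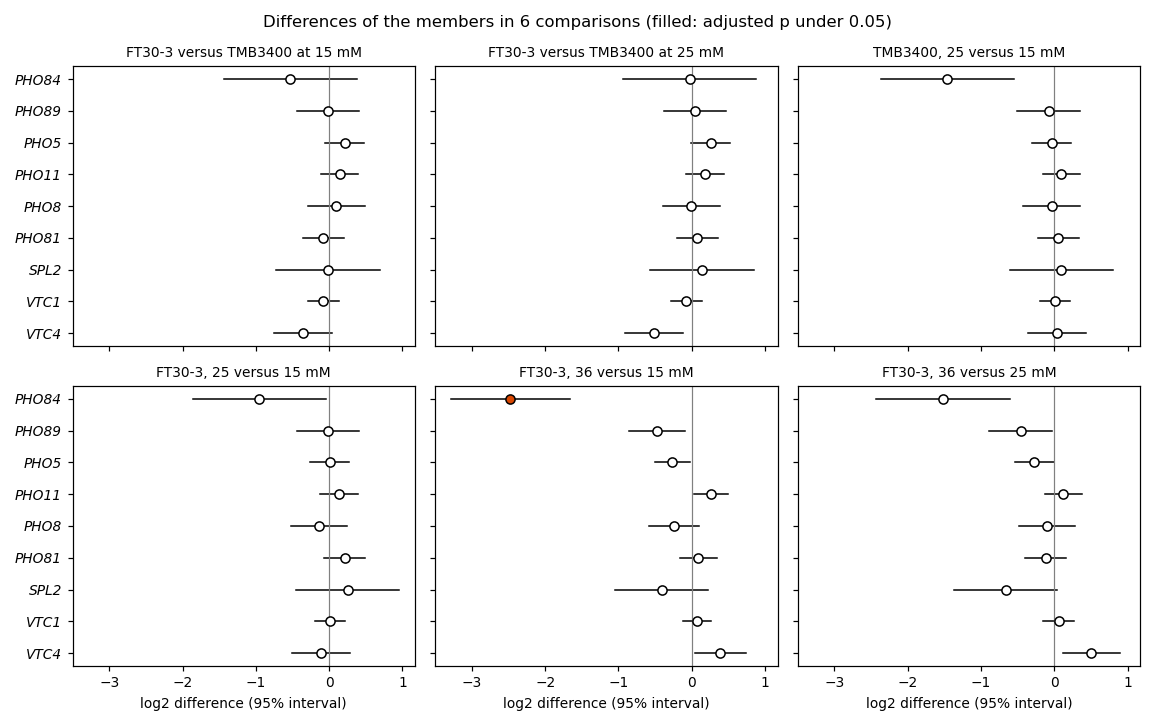
Log2 difference (x axis) with its 95% interval for each of the 9 genes (y axis) in 6 comparisons, named as first minus second group. Filled points have an adjusted p under 0.05 from limma over all genes, and PHO84 at 36 against 15 mM (-2.47) is the one filled point.

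Apart from PHO84 at 36 against 15 mM and VTC4 in the strain average, limma called 0 of the 9 members in the other 6 comparisons. Between the strains at 15 mM, 2.17% of all genes were called (1.91% higher and 0.257% lower), and 0 members had an unadjusted p under 0.05, beside 12.2% of all genes. Groups did not overlap there for 3 of the 9 members and 38.1% of all genes. At 25 mM, 6.7% of genes were called (4.31% higher and 2.39% lower), and 1 member, VTC4, was under 0.05 unadjusted, beside 19.4% of all genes. Groups did not overlap for 4 members and 37.2% of genes.

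From 15 to 25 mM in TMB3400, 1.6% of genes were called (0.789% higher and 0.807% lower), and 1 member, PHO84, was under 0.05 unadjusted, beside 9.45% of all genes. Groups did not overlap for 2 members, PHO84 and PHO11, and 29.6% of genes. The same step in FT30-3 gave calls for 2.15% of genes (1.23% higher and 0.918% lower), again with PHO84 as the 1 member under 0.05 unadjusted, beside 11.6% of all genes. Groups did not overlap for 3 members, PHO84, PHO8 and PHO11, and 28.5% of genes. From 25 to 36 mM, 7.1% of genes were called (3.38% higher and 3.73% lower), and 4 members (PHO84, PHO89, PHO5 and VTC4) were under 0.05 unadjusted, beside 22.5% of all genes. Groups did not overlap for 7 of the 9 members, beside 34.2% of genes. For the interaction, 0.679% of genes were called (0.422% higher and 0.257% lower) and 0 members were under 0.05 unadjusted, beside 3.56% of all genes. At 36 against 15 mM, groups did not overlap for 4 members, PHO84, PHO89, PHO11 and VTC4, and 41.7% of genes. There 5 members, these 4 and PHO5, were under 0.05 unadjusted, beside 37.8% of all genes. In the strain average, 2 members, VTC4 and PHO5, were under 0.05 unadjusted, beside 25.5% of all genes.

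The number of members called depended on how arrays were scaled. On the values as deposited, 4 members were called from 15 to 36 mM: PHO84 lower (-2.28, adjusted p = 0.00108), and PHO11 (0.46, 0.00827), VTC1 (0.27, 0.0241) and VTC4 (0.59, 0.0179) higher. On those values the median of all gene differences was itself 0.17. In the main fit, which sets the array medians equal, PHO11 (0.26), VTC1 (0.07) and VTC4 (0.39) did not pass (limma adjusted p = 0.0938, 0.557 and 0.1). Over all genes, calls in this comparison ran from 732 to 2594 of 5449 over the alternatives, beside 1211 in the main fit. With quantile normalization PHO84 alone was called among the members.

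The other genes of the pathway were taken from a list of 34, of which 32 had a probe set. VTC5 and PPN2 were not analysed here. From 15 to 36 mM in FT30-3, 6 of the 32 rose and 4 fell, beside 11% of all genes called higher and 11.2% called lower. Their median difference was 0.00. The counts were 3 and 4 without replicate 1 at 36 mM, 3 and 3, 4 and 1, and 3 and 2 without replicates 1, 2 and 3 at 15 mM, 2 and 3 in a fit of the groups compared alone, 8 and 8 with array weights, and 8 and 1 on the values as deposited. The shares of 11% and 11.2% hold for the main fit alone. Over all genes, calls in either direction also moved between the alternatives, from 732 to 2594 of 5449.

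Among the 8 transport genes, 2 fell. PHO90, a low-affinity phosphate transporter of the plasma membrane, read 2945, 3508 and 2917 at 15 mM and 2278, 2786 and 2499 at 36 mM. These groups did not overlap, and PHO90 fell (-0.51 ± 0.13, adjusted p = 0.0192). It did not pass on the values as deposited (-0.31, adjusted p = 0.0915) or without replicate 2 at 15 mM (-0.42, adjusted p = 0.0762). The other low-affinity transporter PHO87 (0.12 ± 0.12, adjusted p = 0.474) and the vacuolar transporter PHO91 (0.12 ± 0.13, adjusted p = 0.511) did not pass.

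Among the 12 regulators, 2 rose and 1 fell. PHO4, the transcription factor that activates the starvation genes, read 1186, 1533 and 1424 at 15 mM and 1159, 1168 and 989 at 36 mM. All 36 mM samples lay below all 15 mM samples, and PHO4 fell (-0.52 ± 0.13, adjusted p = 0.0139). It did not pass on the values as deposited (-0.32, adjusted p = 0.0724), or without replicate 2 (-0.43, adjusted p = 0.0595) or 3 (-0.48, adjusted p = 0.0508) at 15 mM. Its partner PHO2 (0.18 ± 0.12), the cyclin PHO80 (0.16 ± 0.12) and the kinase PHO85 (0.01 ± 0.12) did not pass. Pho4 activity is known to be set by phosphorylation, which RNA levels do not measure.

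Among the 12 polyphosphate and phosphatase genes, 4 rose and 1 fell. PHM7, a membrane protein of unclear function first found as responsive to phosphate, read 4821, 2215 and 2317 at 15 mM, 2002 and 2018 at 25 mM, and 201, 233 and 334 at 36 mM. All 36 mM samples lay far below the rest, and PHM7 fell from 15 to 36 mM (-3.73 ± 0.39, adjusted p = 0.000128) and from 25 to 36 mM (-3.04 ± 0.44, adjusted p = 0.00248). VTC3, an accessory subunit of the VTC complex, read 1886, 1979 and 1886 at 15 mM and 3827, 2947 and 2918 at 36 mM. It rose by 0.54 ± 0.10 (adjusted p = 0.00423), and its call held in all 22 alternatives. PPX1, an exopolyphosphatase that degrades polyphosphate in the cytosol, rose by 0.42 ± 0.10 (adjusted p = 0.0105), and missed the threshold in the fit of the groups compared alone (adjusted p = 0.0575). VTC2, VIP1, PHO23, GDE1 and SND3 (PHO88), named after their values were seen, were also called, with differences of 0.61, 0.57, 0.42, 0.30 and -0.31. These calls were lost in 3, 3, 4, 5 and 12 of the 22 alternatives, with the highest adjusted p at 0.0931, 0.0838, 0.0801, 0.115 and 0.396 in turn. Without replicate 1 at 36 mM, VTC2, GDE1, PHO23 and SND3 were not called (adjusted p = 0.0634, 0.0522, 0.0505 and 0.0786), and VIP1 was 0.36 (adjusted p = 0.0228).

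**Figure D3:**
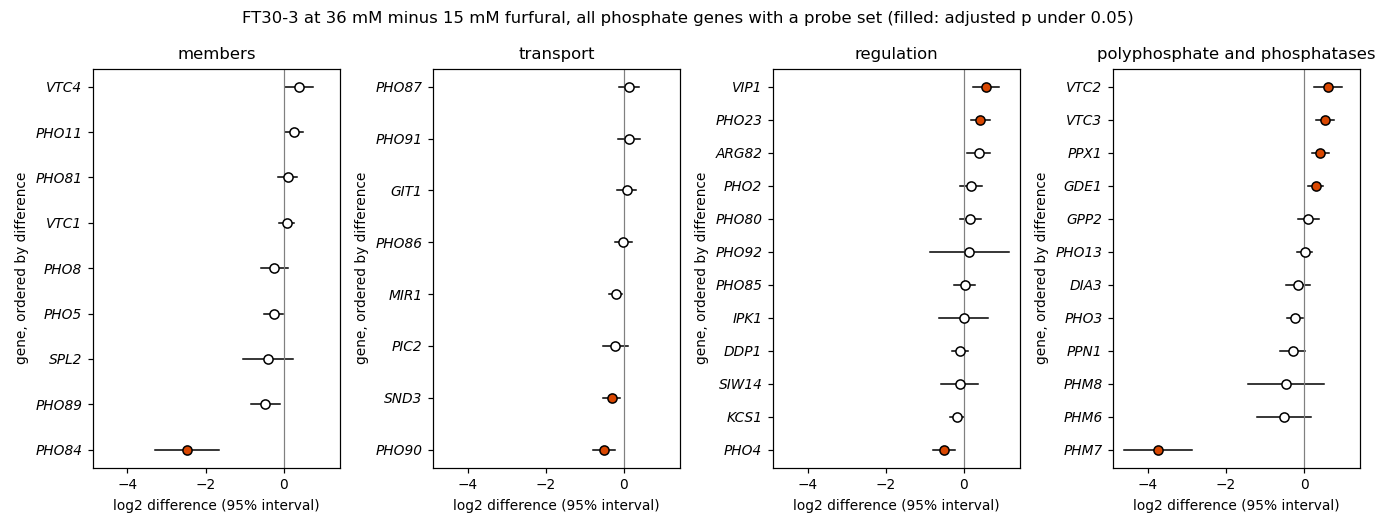
Log2 difference of FT30-3 at 36 mM minus 15 mM (x axis) with its 95% interval for the 9 members and the 32 other phosphate genes (y axis, ordered by difference within each panel). Filled points have an adjusted p under 0.05, with PHM7 (-3.73) and PHO84 (-2.47) farthest from 0.

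Between the strains, averaged over both doses, 3 of the 32 other phosphate genes were higher in FT30-3 and 0 lower in limma, where 6.81% of all genes were called higher and 4.4% lower. At an unadjusted p under 0.05 there were 6 of the 32 (18.8%), beside 25.5% of all genes. GPP2, a glycerol-3-phosphate phosphatase named after its values were seen, was at -0.33 ± 0.10 (adjusted p = 0.0511) and was called lower in 9 of the 22 alternatives (adjusted p from 0.0179 to 0.202). The 3 higher genes were GDE1, which cleaves glycerophosphocholine (0.58 ± 0.07, adjusted p = 0.000403), PHO85 (0.39 ± 0.09, adjusted p = 0.0228) and VTC3 (0.38 ± 0.08, adjusted p = 0.0137). GDE1 read 1261 and 1266 in TMB3400 and 2044, 1776 and 1697 in FT30-3 at 15 mM. All 3 lie on chromosome XVI, and they are the only listed phosphate genes that do. The 424 genes of that chromosome had a median strain difference of 0.43, with 59.2% called higher, against -0.04 and 2.39% for the 5025 genes elsewhere. Of the members, 0 lie on chromosome XVI. VTC3 lost its call without replicate 2 of TMB3400 at 15 mM or replicate 1 of FT30-3 at 25 mM (adjusted p = 0.0635 and 0.0593), and PHO85 lost it in 6 of 22 alternatives (0.0981 at most). Between the strains at 15 mM and at 25 mM alone, 1 of the 32 was called, each time GDE1, higher by 0.53 and 0.63. Of all genes, 1.91% and 4.31% were called higher there. The GDE1 call held in 18 and 22 of the 22 alternatives in turn. From 25 to 36 mM, 1 of the 32, PHM7, was called.

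The genes nearest to PHO84 in pattern were ranked by the root mean square difference of log2 values over the 13 arrays, each gene taken relative to its own mean. The 5 nearest outside the members were FUI1 (0.59), HXT2 (0.60), PDR12 (0.62), SET4 (0.63) and SPO13 (0.63). FUI1 is a uridine permease, HXT2 a high-affinity glucose transporter, and PDR12 an exporter of weak organic acids. SET4 is a SET-domain protein, and SPO13 a regulator of meiosis that read at or below background on 6 arrays. FUI1 and HXT2 differed between 15 and 36 mM in FT30-3 by -2.02 and -1.98. Since the genes were picked for their likeness to PHO84, these values are descriptive. The nearest member was PHO89, at rank 632 with 0.99, and PHO11 was the farthest, at rank 4628 with 1.26. The measure depends on the size of changes as well as their direction, so genes that vary little also lie far from PHO84.

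**Figure D4:**
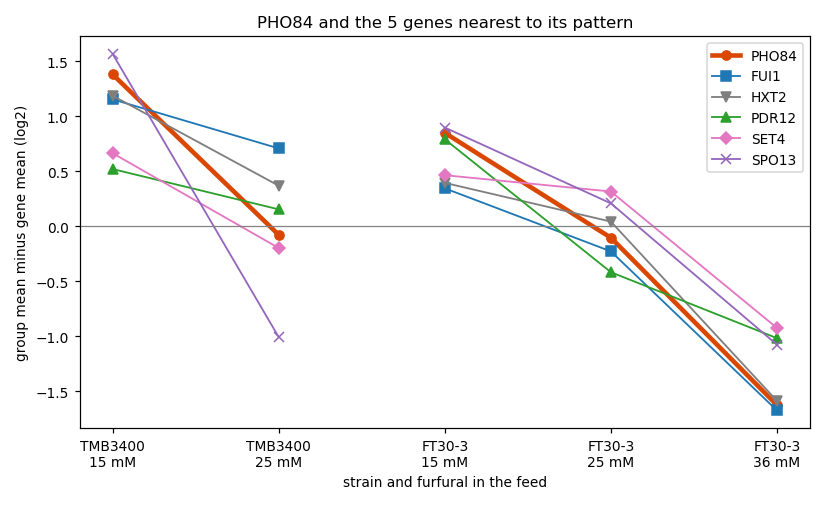
Group mean minus the gene's mean over 13 arrays (y axis, log2) for PHO84 and the 5 genes with the smallest root mean square difference from it, by strain and furfural in the feed (x axis). Lines join doses of 1 strain. All 6 genes have their lowest group mean at 36 mM, and SPO13 reads at or below background on 6 arrays.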

How the data were processed

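The deposited values are linear array intensities from 1 colour, 1 value for each probe set on each array. The submitters' processing notes name R 2.7.2, and background correction, summary and normalization are not stated there, so how the arrays were scaled is unknown. By the platform annotation, 5498 of 10928 probe sets had 1 S. cerevisiae gene, 1746 had 1 S. pombe gene, 1 had several and 3683 had none. The 47 genes with several probe sets were represented by the brightest.

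From these, log2(intensity + 1) was computed, which understates changes of dim genes, and each array's S. cerevisiae median was set to the mean of the array medians. limma 3.58.1 (lmFit and eBayes, R 4.3.3) estimated the mean of each strain and dose group from the 13 arrays together, with Benjamini-Hochberg adjustment over 5449 genes in each comparison. Errors of differences are standard errors. The fit was tested on simulated data with known changes. The simulated noise was independent between arrays, so that test could not assess the effect of deviations shared between arrays. The number of arrays limits the precision, and no arrays held identical values.

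The members, lists and tests were chosen with earlier results of these data known. All members are named, with up to 4 other listed genes of smallest p in each comparison, the main pathway regulators and transporters, and the 5 genes nearest to PHO84. Alternatives covered scaling, a filter on dim genes, the pseudocount (32), the variance model, weights for arrays, fitting the compared groups alone, a replicate block, probe set averaging and leaving out each sample. Figures were drawn with matplotlib 3.10.9.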

Additional observations from a re-analysis of the deposited data

How the results depend on the processing

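Across the 22 alternatives, 1549 of 1584 refitted member differences stayed on the same side of the threshold, 14 lost a call, 21 gained one and 0 changed direction with a call. PHO84 at 36 against 15 mM was called in all of them. The count of members called there was 1, and became 4 on the values as deposited, 3 with array weights and 2 with the groups compared alone (1 to 2 when 1 sample was left out). For the strain average the count of 1 became 0 on the values as deposited, 0 with quantile normalization, 0 with the replicate block and 2 with array weights (0 to 1 with 1 sample left out). For 25 against 15 mM in TMB3400 the count of 0 became 1 with array weights (0 to 1 with 1 sample left out). For 36 against 25 mM the count of 0 became 1 with quantile normalization, 1 with the filter on dim genes, 1 with the trended robust variance and 1 with averaged probe sets (0 to 1 with 1 sample left out), each time PHO84. Between the strains at 25 mM it was 0 to 1 with 1 sample left out. The causes were not tested. With 1 sample of a pair left out, the lone sample was assumed to vary like the other groups.

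Counts over all genes moved by more than 1.5 times. Over all alternatives they ran from 4 to 463 (118 in the report) between the strains at 15 mM, 126 to 591 (365) at 25 mM, 345 to 1049 (611) in their average, 31 to 209 (87) for the dose step in TMB3400, 73 to 204 (117) for it in FT30-3, 732 to 2594 (1211) at 36 against 15 mM, 74 to 414 (387) at 36 against 25 mM, and 21 to 57 (37) for the interaction. Groups share replicate numbers in the labels, and same-numbered samples of different groups had deviations correlated above 0.1 in 13 of 23 pairs (r from -0.4 to 0.587), against 18 of 44 pairs of different number. All 13 are the pairs without FT30-3 at 15 mM, and 0 of the 10 with it passed. Deviations within a group of 2 samples are equal and opposite, so the pairs counted here are not independent of each other. Replicate 2 of FT30-3 at 15 mM had deviations correlated with those of replicate 1 in every other group (r from 0.313 to 0.463). Replicate 1 at 36 mM shared deviations with replicate 1 of each group but FT30-3 at 15 mM (r from 0.350 to 0.587). A factor shared across groups, with the numbers of FT30-3 at 15 mM out of step, was not tested. The main fit holds no such factor, and the block uses the numbers as labelled. Since not every pair passed, the numbers were not taken as a pairing, which these values do not settle. The replicate block ended the call of VTC4 in the strain average (adjusted p = 0.0548) and gave 23 interaction calls. Among the 32 other phosphate genes it added 1 call, GPP2 lower in the strain average (adjusted p = 0.043), and left the counts of the other comparisons as they were. With the 99th percentile of S. pombe probe sets as background, 8 in place of 9 members read above it on all arrays.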
